A study of Mus musculus with 12 samples.

Results

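The genes described here are 10 secreted signals of the intestinal stroma, the connective tissue under the epithelium. They were taken by symbol from the 22063 genes of the deposited table, and each of the 10 symbols matched a single gene. They are the BMP (bone morphogenetic protein) ligands Bmp2, Bmp4 and Bmp5, the BMP antagonists Grem1 and Nog, the R-spondins Rspo1 and Rspo3, the Wnt ligands Wnt2b and Wnt5a, and the Wnt antagonist Sfrp1. The rule used names and known roles and set no limit on a measured value.

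Stromal cells around the crypt base supply Wnt ligands and R-spondins, which keep intestinal stem cells dividing. R-spondins bind Lgr receptors and stop the ubiquitin ligases Rnf43 and Znrf3 from removing Wnt receptors, so that a Wnt signal lasts longer. BMP ligands come mainly from stroma at the crypt top and in the villus and hold cells in a differentiated state, while Grem1 and Nog bind BMP ligands and keep their activity low at the crypt base.

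Intestinal RNA was sequenced in 4 groups of 3 libraries. HH_WBI mice received 10 Gy of whole-body irradiation (WBI) in the HH mode, with ultra-high mean and instantaneous dose rates from a compact linear accelerator, and the tissue was taken 48 h later. HH_Ctrl were the non-irradiated controls of that experiment. LL_WBI mice received 10 Gy in the LL mode, with both dose rates low, from a clinical linear accelerator, with tissue at 48 h, and LL_Ctrl were their non-irradiated controls. All mice were female C57BL6/J animals bought at 7 to 8 weeks of age. Mode and machine cannot be told apart in this design. Whether each library stands for a separate mouse is not stated, and the p-values reflect no more than how far these libraries spread.

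The values are FPKM, fragment numbers scaled to transcript length and to the mapped fragments of the library, which allow levels to be compared between genes. Read depth is unknown, but the steps between low values placed 11 libraries at 90.9% to 107% of the depth of LL_Ctrl library 1 and LL_WBI library 3 at 73.3%. Epithelial markers summed to between 2916 and 6488 FPKM over the 12 libraries. Pancreatic acinar genes (16 genes) held 5.95% and 20.9% of the summed FPKM in LL_WBI libraries 1 and 2, and at most 0.0463% in each of the other 10. In whole tissue, fewer cells of a type and less RNA per cell cannot be told apart. The limma tests ran on log2(FPKM + 0.1), which understates the change of low genes, and took in genes averaging 0.5 FPKM or more in the groups compared. Called genes had an adjusted p (Benjamini-Hochberg) below 0.05 and differed by more than 1 on the log2 scale.

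Averaged over all 12 libraries, Sfrp1 was the most abundant of the 10 genes at 9.21 FPKM, followed by Grem1 at 6.38 and Bmp2 at 5.48 FPKM. Bmp4 averaged 3.96, Wnt2b 2.39, Bmp5 2.11 and Wnt5a 1.95 FPKM. Rspo1 averaged 0.775 FPKM and Rspo3 0.597 FPKM. Nog was the lowest at 0.361 FPKM and was the only member below the limit of 0.5 FPKM over the 12 libraries. No member was listed at 0 in any library, and the highest library stood 4.31 (Nog) to 18.7 times (Rspo1, Sfrp1) above the lowest. The lowest library was an HH_Ctrl library for 6 members and the highest was LL_WBI library 3 for 6.

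**Figure D1:**
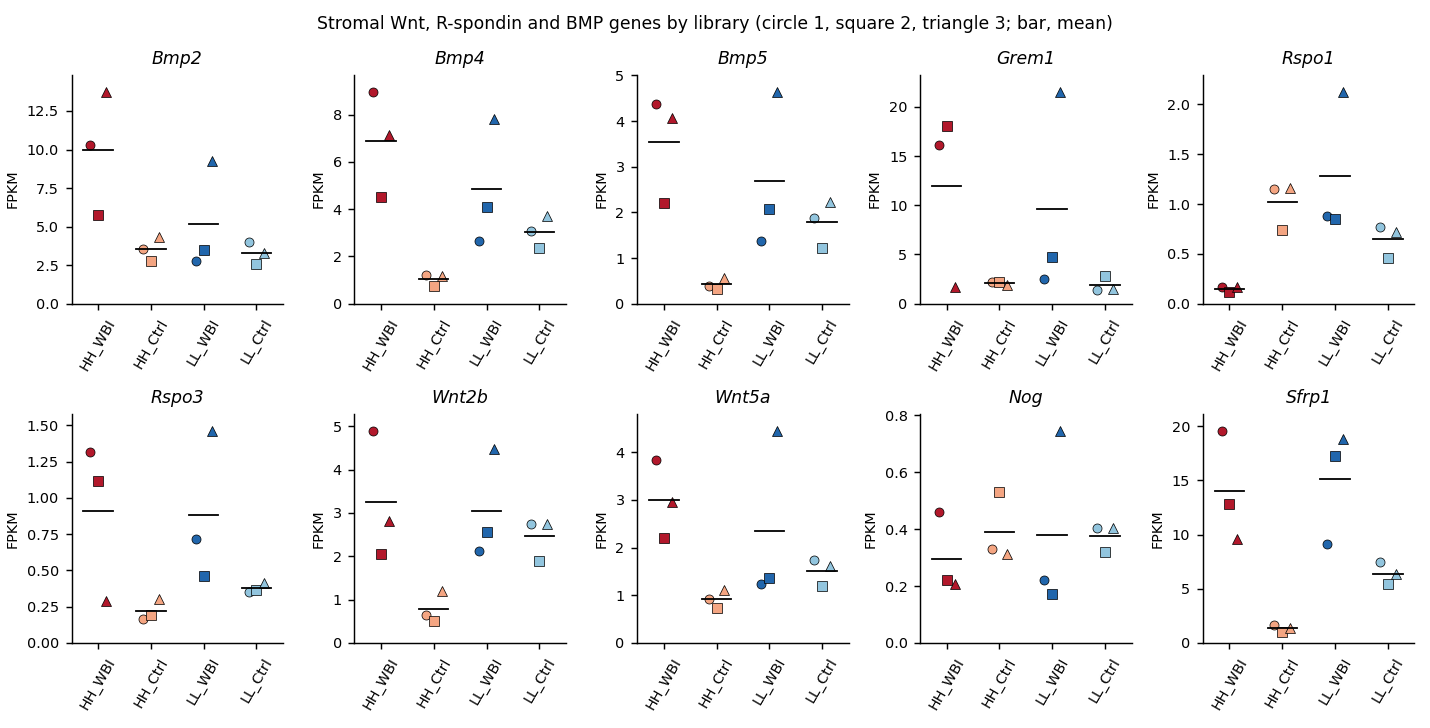
FPKM (linear axes from 0) of the 10 genes in each library of HH_WBI, HH_Ctrl, LL_WBI and LL_Ctrl, with symbols for the library number and a bar at the group mean (n = 3). Sfrp1, Bmp4, Bmp5 and Wnt2b are lowest in HH_Ctrl, and Rspo1 is lowest in HH_WBI at 0.114 to 0.169 FPKM.

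After HH irradiation 7 of the 10 genes changed relative to HH_Ctrl. The BMP ligands, both Wnt ligands and Sfrp1 were higher, and Rspo1 was lower. Of 9 members tested, 6 were called higher, against 10.0% of all genes tested (1280 of 12760), and 1 was called lower, against 2.38% (304 genes). The same 7 members had groups that did not overlap, against 51.9% of all genes tested. The median log2 fold change of the 9 was 1.88, against 0.09 over all genes. With median-ratio scaling the median of all genes was -0.02, with 1055 genes higher and 451 lower, and the same 7 members were called.

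Sfrp1 (ENSMUSG00000031548), a secreted protein that binds Wnt ligands, had 19.6, 12.8 and 9.56 FPKM in HH_WBI libraries 1 to 3 and 1.63, 1.05 and 1.42 FPKM in HH_Ctrl libraries 1 to 3. The lowest irradiated library stood far above the highest control. The log2 fold change was 3.22 ± 0.28 (SE; limma adjusted p = 0.000854), and the ratio of the group means was 10.2.

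Bmp5 (ENSMUSG00000032179), a BMP ligand, had 4.39, 2.20 and 4.06 FPKM in HH_WBI libraries against 0.386, 0.324 and 0.557 FPKM in HH_Ctrl libraries, without overlap. Its log2 fold change was 2.77 ± 0.33 (SE; limma adjusted p = 0.00149). Bmp4 (ENSMUSG00000021835), the BMP ligand of the subepithelial and villus mesenchyme, had 8.98, 4.53 and 7.14 FPKM in HH_WBI libraries against 1.21, 0.766 and 1.19 FPKM in HH_Ctrl libraries. The groups again lay apart, at a log2 fold change of 2.56 ± 0.29 (SE; limma adjusted p = 0.00136). Bmp2 (ENSMUSG00000027358), made by stroma and by villus epithelium, had 10.3, 5.78 and 13.8 FPKM in HH_WBI libraries against 3.56, 2.74 and 4.33 FPKM in HH_Ctrl libraries. This was the smallest of the called increases, with a log2 fold change of 1.40 ± 0.32 (SE; limma adjusted p = 0.0130). The ratio of Bmp2 to Bmp4 was therefore lower in HH_WBI libraries, at 1.14 to 1.93, than in HH_Ctrl libraries, at 2.93 to 3.63. It was 0.848 to 1.18 in LL_WBI and 0.890 to 1.29 in LL_Ctrl libraries, so HH_Ctrl was the group that stood apart.

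Wnt2b (ENSMUSG00000027840), a canonical Wnt ligand of the gut mesenchyme, had 4.90, 2.05 and 2.81 FPKM in HH_WBI libraries against 0.649, 0.509 and 1.19 FPKM in HH_Ctrl libraries. The groups did not overlap, and the log2 fold change was 1.91 ± 0.39 (SE; limma adjusted p = 0.00912). Wnt5a (ENSMUSG00000021994), which acts mostly through non-canonical Wnt pathways, had 3.84, 2.19 and 2.95 FPKM in HH_WBI libraries against 0.915, 0.741 and 1.12 FPKM in HH_Ctrl libraries. It was higher by 1.58 ± 0.27 on the log2 scale (SE; limma adjusted p = 0.00460). The sum of both ligands was 4.24 to 8.73 FPKM in HH_WBI and 1.25 to 2.31 FPKM in HH_Ctrl. Sfrp1 stood higher still relative to that sum, at 1.66 to 3.02 times it in HH_WBI and 0.615 to 1.04 times it in HH_Ctrl. This ratio was also higher in LL_WBI, at 2.11 to 4.39, than in LL_Ctrl, at 1.46 to 1.76.

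The R-spondins differed from each other. Rspo1 (ENSMUSG00000028871) had 0.165, 0.114 and 0.169 FPKM in HH_WBI libraries against 1.15, 0.737 and 1.16 FPKM in HH_Ctrl libraries. All 3 irradiated libraries lay below every other library of the series, and the HH_Ctrl mean was 6.81 times the HH_WBI mean. The log2 fold change was -2.15 ± 0.34 (SE; limma adjusted p = 0.00352). With a pseudocount of 1 FPKM it was -0.80 (adjusted p = 0.00484), which is within the fold limit. Rspo3 (ENSMUSG00000019880), the R-spondin of crypt-base stroma and of lymphatic endothelium, had 1.32, 1.12 and 0.289 FPKM in HH_WBI libraries against 0.168, 0.195 and 0.302 FPKM in HH_Ctrl libraries. The first pair of irradiated libraries lay above all controls and the third among them, and the difference of 1.47 ± 0.53 on the log2 scale was not called (limma adjusted p = 0.0660). Without HH_WBI library 3 it was 2.05 (adjusted p = 0.00805).

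Grem1 (ENSMUSG00000074934), the BMP antagonist of stroma beneath the crypts, followed the same split between libraries. It had 16.1, 18.1 and 1.69 FPKM in HH_WBI libraries against 2.15, 2.23 and 1.91 FPKM in HH_Ctrl libraries. Libraries 1 and 2 of HH_WBI were well above the controls and library 3 was below them all. The log2 fold change of 1.88 ± 0.80 (SE) was not called (limma adjusted p = 0.102), and without HH_WBI library 3 it was 2.97 (adjusted p = 0.00129). HH_WBI library 3 also had the lowest smooth muscle sum of its group (327 FPKM, against 706 and 450 FPKM in libraries 1 and 2) and the lowest sum of enteric glia and neuron markers (10.0 FPKM, against 20.8 and 18.3 FPKM). Its epithelial sum was the highest of the group (6474 FPKM, against 4636 and 5025 FPKM), and the part of the tissue sampled in the Grem1 and Rspo3 values was not tested. Nog (ENSMUSG00000048616), the other antagonist, had 0.459, 0.223 and 0.206 FPKM in HH_WBI libraries against 0.329, 0.532 and 0.314 FPKM in HH_Ctrl libraries. The groups overlapped, and Nog lay below the limit for testing.

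**Figure D2:**
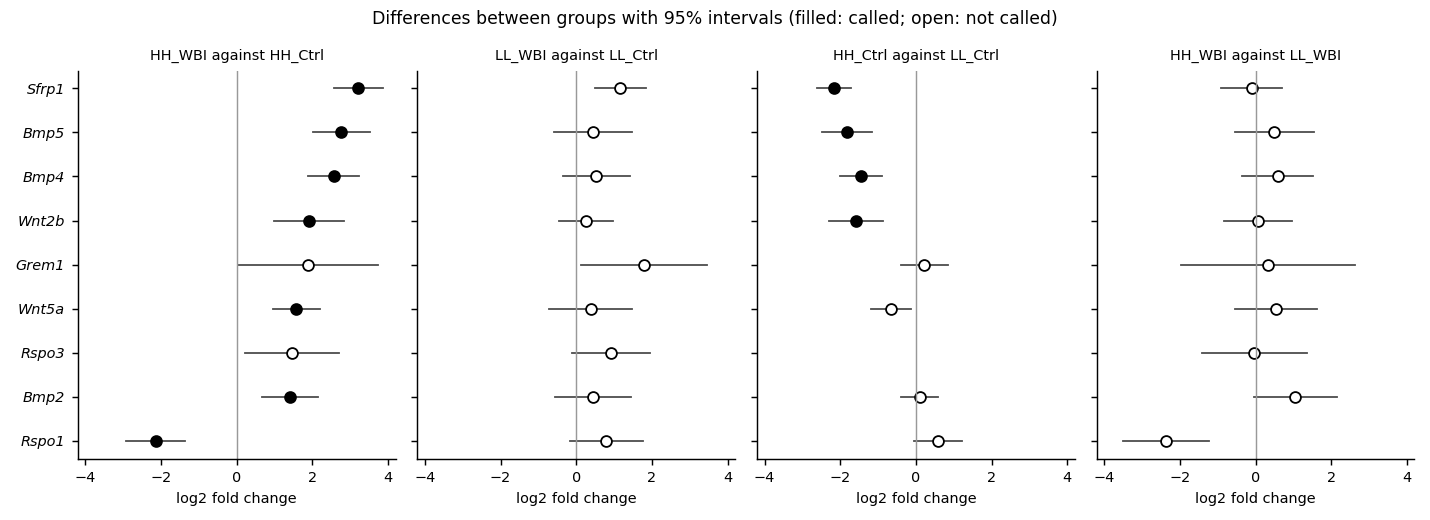
Log2 fold change (points) and 95% interval (lines) of 9 genes in the 4 comparisons of pairs of groups, from limma on log2(FPKM + 0.1). Filled points were called. In HH_WBI against HH_Ctrl 6 genes are filled on the right and Rspo1 on the left, in HH_Ctrl against LL_Ctrl 4 are filled on the left, and the other comparisons have none. Rspo3 was not tested between the controls.

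The ratio of the R-spondin transcripts was highest in HH_WBI, where Rspo1 was low at 0.114 to 0.169 FPKM. Rspo3 was not called there, and in HH_WBI library 3 it lay among the controls. The ratio of Rspo3 to Rspo1 was 7.98, 9.79 and 1.71 in HH_WBI libraries against 0.146, 0.265 and 0.260 in HH_Ctrl libraries. It was 0.811, 0.547 and 0.686 in LL_WBI libraries against 0.458, 0.803 and 0.575 in LL_Ctrl libraries. Rspo3 exceeded Rspo1 in the 3 HH_WBI libraries and in none of the other 9. The sum of both R-spondins overlapped between the groups, at 0.458 to 1.48 FPKM in HH_WBI and 0.932 to 1.46 FPKM in HH_Ctrl.

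Markers of mesothelium, the cell layer on the outer surface of the gut, moved with Rspo1. Of the 6 markers, 2 of the 4 tested were called lower in HH_WBI than in HH_Ctrl, Msln with a log2 fold change of -2.53 and Upk3b with -2.94. Krt19 is also an epithelial keratin and held most of the list's sum (455 to 823 FPKM). The other 5 markers (Msln, Upk3b, Lrrn4, Wt1, Muc16) summed to 3.38, 0.808 and 0.982 FPKM in HH_WBI libraries against 9.39, 8.92 and 11.6 FPKM in HH_Ctrl libraries. Wt1 was listed at 0 in an HH_WBI library. Per 10 FPKM of these 5 markers, Rspo1 stood at 0.488 to 1.72 FPKM in HH_WBI and 0.826 to 1.23 FPKM in HH_Ctrl, so the groups overlapped. The sums were 4.69 to 20.1 FPKM in LL_WBI and 3.81 to 7.72 FPKM in LL_Ctrl, and the highest value of both the sum and Rspo1 was in LL_WBI library 3. The part of mesothelial RNA in the Rspo1 difference was not tested.

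**Figure D3:**
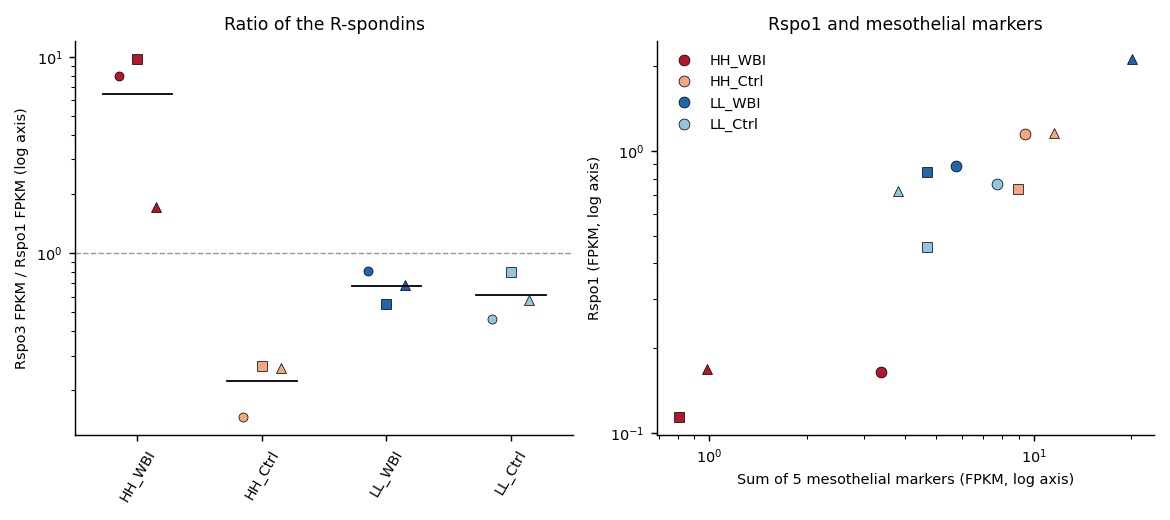
Left, the ratio of Rspo3 to Rspo1 FPKM (log axis, dashed line at 1, bar at the mean) by library. Right, Rspo1 FPKM against the summed FPKM of 5 mesothelial markers (both axes log), with colours for the groups and circles, squares and triangles for libraries 1, 2 and 3. The 3 HH_WBI libraries lie above 1 on the left and at the lower left on the right.

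Fibroblast and vascular markers moved with the genes that were higher. In HH_WBI against HH_Ctrl, 5 of 6 tested markers of subepithelial myofibroblasts and telocytes were called higher, with Pdgfra at a log2 fold change of 2.80 and Foxf1 at 1.04. So were 7 of 10 tested markers of other fibroblasts, with Dcn at 2.97 and Col3a1 at 2.69, 7 of 7 endothelial markers and 7 of 7 macrophage markers. The most abundant markers of the first and second list, Sox6 (0.79) and Cd81 (-0.23), were not called (limma adjusted p = 0.0745 and 0.208). None of the 8 smooth muscle, 7 epithelial, 5 fat or 15 pancreatic acinar markers tested was called, and 1 of 3 of enteric glia and neurons was called higher. The macrophage list summed to 118 to 154 FPKM in HH_WBI and 17.6 to 38.3 FPKM in HH_Ctrl. The endothelial list summed to 24.7 to 42.3 FPKM in HH_WBI and 7.37 to 12.9 FPKM in HH_Ctrl. The myofibroblast and telocyte list summed to 40.3 to 75.0 FPKM in HH_WBI and 19.9 to 24.7 FPKM in HH_Ctrl, with Foxl1 listed at 0 in HH_Ctrl library 2. Sox6 alone held 14.0 to 31.5 FPKM in HH_WBI and 11.3 to 15.5 FPKM in HH_Ctrl.

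The 10 fibroblast markers left when the broadly expressed Cd81 was set aside summed to 165 to 270 FPKM in HH_WBI and 33.5 to 41.8 FPKM in HH_Ctrl. With Cd81 kept, the list summed to 256 to 381 FPKM in HH_WBI and 152 to 160 FPKM in HH_Ctrl. The groups lie closer together on that sum, so directions below can depend on leaving Cd81 out. Divided by the sum without Cd81, the genes no longer moved as a set. Sfrp1 stood at 5.56 to 7.76 FPKM per 100 FPKM of markers in HH_WBI and 3.13 to 4.34 in HH_Ctrl, still without overlap. Bmp4 was at 2.75 to 4.15 in HH_WBI and 2.29 to 3.22 in HH_Ctrl, and Wnt2b at 1.24 to 1.82 in HH_WBI and 1.52 to 2.85 in HH_Ctrl. Both of these overlapped, as did Bmp5 at 1.331 to 2.36 in HH_WBI and 0.967 to 1.334 in HH_Ctrl. Bmp2 was lower, at 3.5 to 8.01 in HH_WBI and 8.17 to 10.4 in HH_Ctrl, and so was Wnt5a, at 1.33 to 1.72 in HH_WBI and 2.21 to 2.68 in HH_Ctrl. Rspo1 lay furthest below, at 0.0612 to 0.0983 in HH_WBI and 2.20 to 3.06 in HH_Ctrl. These ratios are a description, and the part of a changed share of stromal RNA was not tested.

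**Figure D4:**
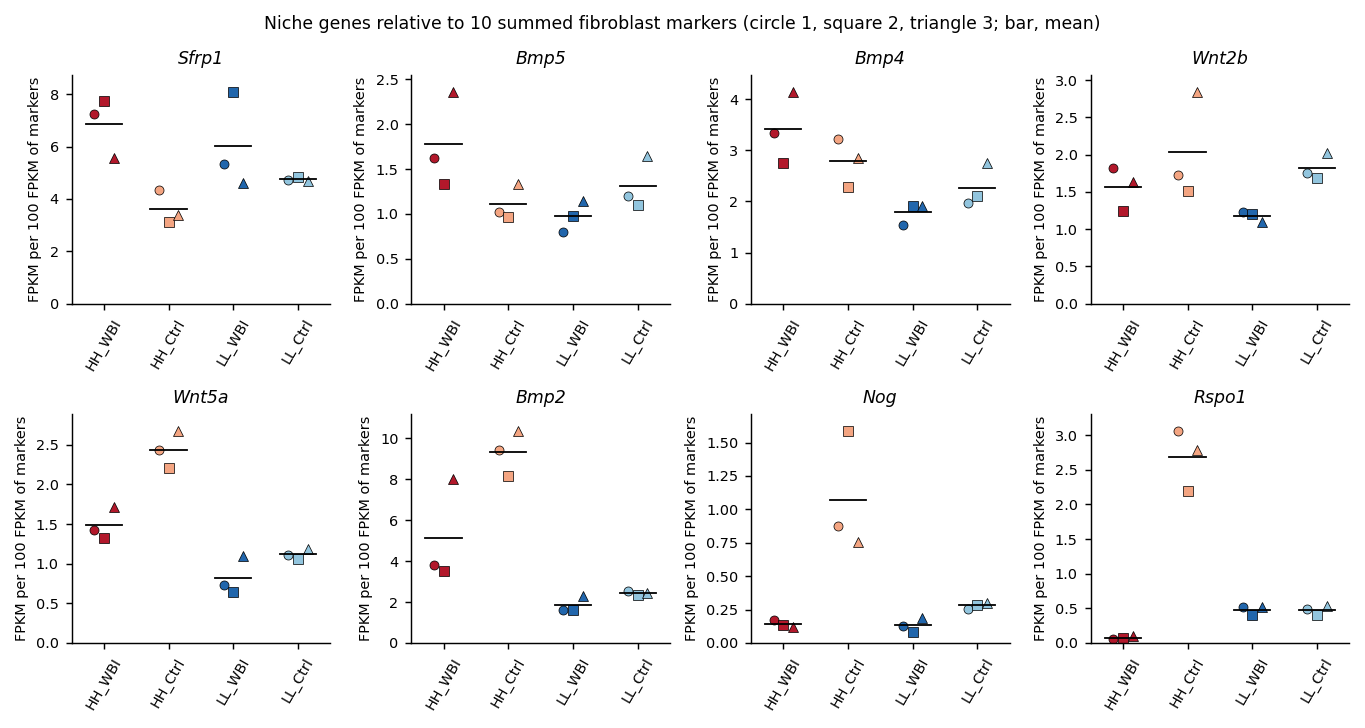
FPKM of 8 genes per 100 FPKM of 10 summed fibroblast markers in each library (linear axes from 0), with symbols for the library number and a bar at the group mean (n = 3). On this scale, which leaves out Cd81, Sfrp1 is above HH_Ctrl in HH_WBI, while Bmp2, Wnt5a, Nog and Rspo1 are below it.

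The sequences upstream of 4 called genes are shown because 3 of these genes were higher together and Rspo1 was lower. They are the 250 bases before the transcript start, 5′ to 3′ on the gene's strand, from RefSeq on build GRCm38.p6, whose table matched 5 of the 10 genes (Bmp4, Bmp5, Grem1, Rspo1, Wnt2b). Capitals mark matches, on either strand, to GGGCGG, the letters of the GC box, to CCAAT, which the factor NF-Y binds, to TATAAA, the core element that positions many transcript starts, or to CTTTGA, a motif that TCF/LEF factors bind in Wnt-responsive genes.
Bmp4: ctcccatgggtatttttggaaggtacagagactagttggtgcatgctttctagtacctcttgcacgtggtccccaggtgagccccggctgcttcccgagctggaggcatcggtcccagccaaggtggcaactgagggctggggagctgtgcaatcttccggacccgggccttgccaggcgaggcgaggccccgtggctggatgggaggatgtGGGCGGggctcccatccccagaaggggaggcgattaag
Bmp5: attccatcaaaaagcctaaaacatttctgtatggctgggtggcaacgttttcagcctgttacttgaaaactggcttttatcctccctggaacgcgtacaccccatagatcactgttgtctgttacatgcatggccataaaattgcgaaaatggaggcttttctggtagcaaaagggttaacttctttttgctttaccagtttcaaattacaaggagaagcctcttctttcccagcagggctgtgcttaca
Wnt2b: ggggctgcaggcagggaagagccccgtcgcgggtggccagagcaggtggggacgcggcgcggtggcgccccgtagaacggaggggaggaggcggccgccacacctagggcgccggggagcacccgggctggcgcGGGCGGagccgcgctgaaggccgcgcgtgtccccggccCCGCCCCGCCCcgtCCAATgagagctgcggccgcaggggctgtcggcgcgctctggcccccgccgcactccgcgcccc
Rspo1: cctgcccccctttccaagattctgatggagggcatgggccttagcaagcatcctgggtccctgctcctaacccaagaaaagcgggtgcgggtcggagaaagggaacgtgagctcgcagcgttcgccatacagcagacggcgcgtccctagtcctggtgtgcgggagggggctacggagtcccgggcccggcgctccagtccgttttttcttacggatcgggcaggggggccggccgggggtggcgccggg

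Bmp4 (chr14:46390670-46390919, minus strand) had 1 GC box and Wnt2b (chr3:104961710-104961959, minus strand) had 3 and a CCAAT match. Bmp5 (chr9:75775115-75775364, plus strand) and Rspo1 (chr4:124986180-124986429, plus strand) had no match. Among the 32851 promoters of the table, 32.7% held the GC box, 33.8% the letters CCAAT, 12.4% the core element and 13.8% the TCF/LEF motif, on either strand. The 3 genes that were higher differed among themselves, with a GC content of 80.8% in Wnt2b, 63.2% in Bmp4 and 42.8% in Bmp5, against a median of 52.4% over all promoters. Rspo1 had 66.8%. No letter pattern searched was shared by the 3 and absent from Rspo1.

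After LL irradiation none of the 9 tested members was called, where 0.247% of all genes tested were (32 of 12946). All 9 had a log2 fold change above 0, with a median of 0.53 against -0.12 over all genes. The groups did not overlap for 3 members (Rspo1, Rspo3, Sfrp1), against 28.9% of all genes tested. At an unadjusted p under 0.05 there were 2366 genes, Sfrp1 and Grem1 among them. With the pancreatic acinar genes removed no member was called either.

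Sfrp1 came nearest to a call. It had 9.13, 17.3 and 18.8 FPKM in LL_WBI libraries against 7.43, 5.44 and 6.34 FPKM in LL_Ctrl libraries, without overlap. The log2 fold change was 1.17 ± 0.29 (SE; limma adjusted p = 0.166), and without LL_WBI library 1 it was 1.49 and called (adjusted p = 0.0187).

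Grem1 had 2.50, 4.70 and 21.6 FPKM in LL_WBI libraries against 1.36, 2.79 and 1.48 FPKM in LL_Ctrl libraries. Library 3 of LL_WBI stood far above the rest, and the groups overlapped. The log2 fold change was 1.78 ± 0.72 (SE; limma adjusted p = 0.255). Rspo3 had 0.716, 0.463 and 1.46 FPKM in LL_WBI libraries against 0.352, 0.367 and 0.415 FPKM in LL_Ctrl libraries. It was higher in each irradiated library, but the log2 fold change of 0.91 ± 0.44 (SE) was not called (limma adjusted p = 0.323). Rspo1 had 0.883, 0.847 and 2.13 FPKM in LL_WBI libraries against 0.768, 0.457 and 0.722 FPKM in LL_Ctrl libraries. The groups did not overlap and the log2 fold change was 0.80 ± 0.41 (SE; limma adjusted p = 0.345), opposite in sign to that after HH irradiation.

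The BMP and Wnt ligands overlapped between LL_WBI and LL_Ctrl, with the highest of the 6 values in LL_WBI library 3 for each. Bmp2 had 2.77, 3.46 and 9.24 FPKM in LL_WBI libraries against 3.98, 2.60 and 3.32 FPKM in LL_Ctrl libraries. Bmp4 had 2.64, 4.08 and 7.80 FPKM in LL_WBI libraries against 3.08, 2.35 and 3.73 FPKM in LL_Ctrl libraries. In both, LL_WBI library 1 lay among the controls. Bmp5 had 1.37, 2.08 and 4.65 FPKM in LL_WBI libraries against 1.88, 1.23 and 2.24 FPKM in LL_Ctrl libraries. Wnt2b had 2.11, 2.57 and 4.48 FPKM in LL_WBI libraries against 2.74, 1.89 and 2.74 FPKM in LL_Ctrl libraries, and Wnt5a had 1.25, 1.36 and 4.45 FPKM in LL_WBI libraries against 1.75, 1.19 and 1.61 FPKM in LL_Ctrl libraries. The log2 fold changes of these 5 genes were 0.25 (Wnt2b) to 0.53 (Bmp4), with limma adjusted p from 0.465 to 0.670. Without LL_WBI library 3, Bmp2 (-0.07), Bmp5 (-0.03), Wnt2b (-0.05) and Wnt5a (-0.19) changed sign. Nog had 0.220, 0.173 and 0.746 FPKM in LL_WBI libraries against 0.404, 0.321 and 0.403 FPKM in LL_Ctrl libraries, with library 3 again the highest, and was not tested.

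LL_WBI library 3 also held the highest sum of smooth muscle markers (1222.5 FPKM, against 457 and 466 FPKM in LL_WBI libraries 1 and 2) and of the 10 fibroblast markers (407 FPKM, against 172 and 213 FPKM). None of the 10 tested fibroblast markers was called between LL_WBI and LL_Ctrl. Per 100 FPKM of fibroblast markers, Wnt2b was at 1.10 to 1.23 FPKM in LL_WBI and 1.69 to 2.03 FPKM in LL_Ctrl, and Bmp2 at 1.61 to 2.27 FPKM in LL_WBI and 2.32 to 2.53 FPKM in LL_Ctrl. On that scale Bmp2, Bmp4, Nog and Wnt2b were lower in every LL_WBI library than in every LL_Ctrl library. With Cd81 kept, the fibroblast list summed to 323 to 528 FPKM in LL_WBI and 240 to 290 FPKM in LL_Ctrl. This order can therefore depend on leaving Cd81 out. The part of the sampled share of gut wall in these values was not tested.

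The control groups differed from each other in 4 of the 6 genes that were higher after HH irradiation. Of 8 members tested, 4 were called lower in HH_Ctrl than in LL_Ctrl, against 11.9% of all genes tested (1499 of 12595), and none was called higher. After median-ratio scaling 1089 were lower and 406 were higher, the median of all genes was 0.03 in place of -0.13, and the same 4 members were called. The values of 5 of the 8 tested members (Bmp4, Bmp5, Sfrp1, Wnt2b, Wnt5a) did not overlap, against 57.7% of all genes tested. Rspo3, below the limit for testing, did not overlap either, at 0.168 to 0.302 FPKM in HH_Ctrl and 0.352 to 0.415 FPKM in LL_Ctrl. The log2 fold change was -2.16 ± 0.19 for Sfrp1, -1.83 ± 0.28 for Bmp5, -1.59 ± 0.30 for Wnt2b and -1.45 ± 0.24 for Bmp4 (SE; limma adjusted p from 0.000226 to 0.00462). Wnt5a was lower by a log2 difference within the fold limit (-0.66 ± 0.22; limma adjusted p = 0.0461). Bmp2 (0.10 ± 0.21), Grem1 (0.22 ± 0.26) and Rspo1 (0.58 ± 0.27) were not called. With a pseudocount of 1 FPKM only Sfrp1 was called.

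Marker lists moved with the control comparison in both directions. Of the 10 tested fibroblast markers 7 were called lower in HH_Ctrl than in LL_Ctrl, as were 7 of 7 endothelial markers, 7 of 7 macrophage markers and 1 of 5 myofibroblast and telocyte markers (Pdgfra, -1.35). Also lower were 6 of 7 tested pancreatic acinar markers (such as Try4, -2.12) and 1 of 3 of enteric glia and neurons (Vip, -1.23). Mesothelial Msln (1.26) was called higher. All 8 smooth muscle markers were above 0. Of these, 6 had a limma adjusted p under 0.05 within the fold limit (such as Acta2, 0.44). The smooth muscle list summed to 529 to 622 FPKM in HH_Ctrl and 390 to 441 FPKM in LL_Ctrl. The part of tissue composition in the members' differences was not tested. The 10 summed fibroblast markers stood at 33.5 to 41.8 FPKM in HH_Ctrl and 112 to 157 FPKM in LL_Ctrl. Relative to that sum, Bmp2 stood at 8.17 to 10.4 FPKM per 100 FPKM in HH_Ctrl and 2.32 to 2.53 in LL_Ctrl, and Rspo1 at 2.20 to 3.06 in HH_Ctrl and 0.408 to 0.533 in LL_Ctrl. Bmp2, Rspo1, Grem1, Rspo3 and Nog were higher in every HH_Ctrl library than in every LL_Ctrl library on that scale. So was Wnt5a, at 2.21 to 2.68 in HH_Ctrl and 1.06 to 1.19 in LL_Ctrl, although its FPKM were lower in HH_Ctrl. Sfrp1 was still lower (3.13 to 4.34 in HH_Ctrl and 4.68 to 4.86 in LL_Ctrl), and Bmp4, Bmp5 and Wnt2b overlapped. With Cd81 kept, the fibroblast list summed to 152 to 160 FPKM in HH_Ctrl and 240 to 290 FPKM in LL_Ctrl. Orders on this scale, such as that of Wnt5a, can therefore depend on leaving Cd81 out. The HH response and this comparison share the HH_Ctrl libraries. Against LL_Ctrl in place of HH_Ctrl, an alternative chosen after seeing the data, 3 members (Bmp2, Bmp4, Sfrp1) were called higher in HH_WBI and Wnt2b had a log2 fold change of 0.32 (limma adjusted p = 0.483). Rspo1 was below the limit for testing in that alternative, at 0.114 to 0.169 FPKM in HH_WBI and 0.457 to 0.768 FPKM in LL_Ctrl. Against all 6 controls the calls of Bmp5 (1.85, adjusted p = 0.0503) and Wnt2b (1.11, adjusted p = 0.184) were lost. Against HH_Ctrl in place of LL_Ctrl, 4 members (Bmp4, Bmp5, Wnt2b, Sfrp1) were called higher in LL_WBI.

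Between the irradiated groups the values of 8 tested members overlapped. None of 9 tested members was called between HH_WBI and LL_WBI, and 0.00% of all genes were (0 of 13049 by limma, with 1458 at an unadjusted p under 0.05). The 95% interval of the log2 difference was -0.91 to 0.70 for Sfrp1 and -0.82 to 0.96 for Wnt2b. It was wider for Grem1, at -1.97 to 2.62. The values of 1 member, Rspo1, did not overlap, against 17.1% of all genes tested. Rspo1 was at 0.114 to 0.169 FPKM in HH_WBI and 0.847 to 2.13 FPKM in LL_WBI. Its log2 difference of -2.36 ± 0.50 (SE) had a limma adjusted p of 0.30, and of 0.0142 with all 12 libraries in one fit.

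The difference between the responses, (HH_WBI minus HH_Ctrl) minus (LL_WBI minus LL_Ctrl), was fitted over all 12 libraries and called by the adjusted p alone. Of 9 members tested, 3 were called higher, against 6.73% of all genes tested (870 of 12921), and 1 lower, against 0.635% (82 genes). After median-ratio scaling the calls were 824 higher and 348 lower, the median of all genes was -0.01 in place of 0.18, and the same 4 members were called. The difference was 2.33 ± 0.59 for Bmp5, 2.06 ± 0.43 for Sfrp1, 2.03 ± 0.52 for Bmp4 and -2.94 ± 0.53 for Rspo1 (SE on the log2 scale; limma adjusted p from 0.0161 for Rspo1 to 0.0397 for Bmp4). Wnt2b at 1.66 ± 0.54 (adjusted p = 0.0813) and Wnt5a at 1.20 ± 0.58 (adjusted p = 0.232) were not called. Among markers, 3 of 10 fibroblast (such as Dcn, 2.01), 1 of 6 myofibroblast and telocyte (Pdgfra, 2.05), 3 of 7 endothelial and 6 of 7 macrophage ones were called higher. Mesothelial Msln (-3.33) and Upk3b (-3.41), 2 of 4 tested, and 1 of 4 of enteric glia and neurons were called lower. No smooth muscle, epithelial, fat or pancreatic acinar marker was called. The part of tissue composition was not tested. Leaving out each library in turn, the calls of Bmp4 and Bmp5 were lost in 10 of 12 cases, all but those without LL_WBI library 3 or HH_WBI library 2, with adjusted p up to 0.106 and 0.102. Sfrp1 was lost in 5 cases (each LL_Ctrl library, HH_Ctrl library 2, HH_WBI library 1; up to 0.0640) and Rspo1 in 2 (LL_Ctrl library 2 or 3; up to 0.0532). Without LL_WBI library 3, 7 of the 9 tested members were called, all but Grem1 and Rspo3.

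In order of the group means, HH_WBI stood first and LL_WBI second for 7 members (Bmp2, Bmp4, Bmp5, Grem1, Rspo3, Wnt2b, Wnt5a), and these neighbours overlapped in every case. Sfrp1 averaged 14.0 ± 5.10 FPKM in HH_WBI against 1.37 ± 0.296 FPKM in HH_Ctrl, and 15.1 ± 5.20 FPKM in LL_WBI against 6.40 ± 0.997 FPKM in LL_Ctrl (SD, n = 3 each), so that LL_WBI stood first and overlapped HH_WBI. HH_Ctrl was last and apart from its neighbour LL_Ctrl for Bmp4, Bmp5, Rspo3, Wnt2b, Wnt5a and Sfrp1. Rspo1 averaged 0.149 ± 0.0307 FPKM in HH_WBI against 1.02 ± 0.242 FPKM in HH_Ctrl, and 1.29 ± 0.731 FPKM in LL_WBI against 0.649 ± 0.168 FPKM in LL_Ctrl (SD, n = 3 each). Its order ran LL_WBI, HH_Ctrl, LL_Ctrl, with each neighbour overlapping the next, and HH_WBI stood apart at the end. For Nog all neighbours in the order overlapped.

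BMP ligands and their antagonists were also summed per library. Bmp2, Bmp4 and Bmp5 together stood at 12.5 to 25.0 FPKM in HH_WBI against 3.83 to 6.08 FPKM in HH_Ctrl, and at 6.77 to 21.7 FPKM in LL_WBI against 6.18 to 9.28 FPKM in LL_Ctrl. Grem1 and Nog together stood at 1.90 to 18.3 FPKM in HH_WBI against 2.23 to 2.76 FPKM in HH_Ctrl, and at 2.72 to 22.3 FPKM in LL_WBI against 1.76 to 3.11 FPKM in LL_Ctrl. The ratio of ligands to antagonists differed most within HH_WBI, at 1.42, 0.683 and 13.1 in libraries 1 to 3, against 2.08, 1.39 and 2.73 in HH_Ctrl libraries. It was 2.49, 1.97 and 0.972 in LL_WBI libraries against 5.07, 1.99 and 4.92 in LL_Ctrl libraries. The 3 lowest ratios of the series were in HH_WBI library 2, LL_WBI library 3 and HH_Ctrl library 2, and the highest in HH_WBI library 3, where Grem1 was low.

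**Figure D5:**
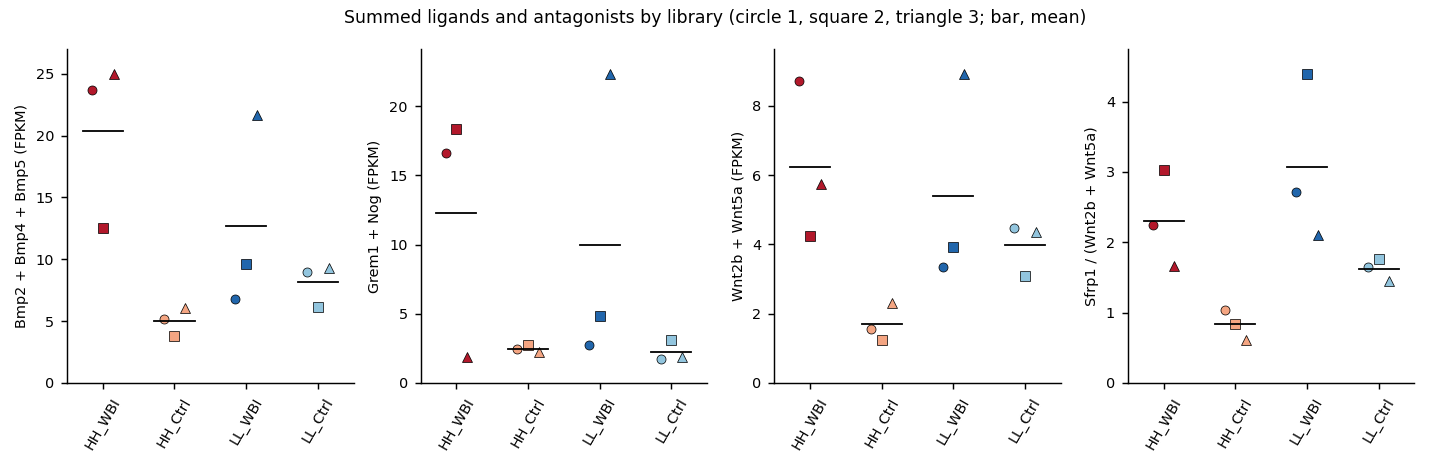
Summed FPKM of the BMP ligands, the BMP antagonists and the Wnt ligands, and the ratio of Sfrp1 to the Wnt ligands, in each library (linear axes from 0), with symbols for the library number and a bar at the group mean (n = 3). HH_WBI library 3 has a high ligand sum (25.0 FPKM) and a low antagonist sum (1.90 FPKM).

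The members other than Nog were set out in 3 patterns over the 12 libraries, given as a description, since the points are 4 groups of 3 libraries. Among Bmp2, Bmp4, Bmp5, Wnt2b, Wnt5a and Sfrp1 the 15 pairwise correlations (Pearson's r of log2 values) ran between 0.51 and 0.99 with a median of 0.91, and with the group means removed between 0.43 and 0.96. Grem1 and Rspo3 correlated with each other at 0.87, and at 0.85 with the group means removed. With the genes of the first pattern they correlated at 0.47 to 0.79 (median 0.63), so these patterns were not sharply apart. With the group means removed those values were 0.10 to 0.63 (median 0.32). Rspo1 correlated with the other 8 at -0.40 to -0.20, but at 0.29 to 0.94 with the group means removed.

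The gene with the pattern most like each member, of the 12921 genes averaging 0.5 FPKM or more over the 12 libraries, was found by the same correlation. For Bmp4 it was Il1rl2 (r = 0.995), for Sfrp1 Lama2 (0.992), for Bmp2 Lats2 (0.988), for Wnt5a Tmem176b (0.988) and for Bmp5 Cdh11 (0.987), a cadherin of mesenchymal cells. For Wnt2b it was Acvrl1 (0.981), a BMP receptor of endothelium, for Grem1 Abcc9 (0.978), for Rspo3 Rexo2 (0.963) and for Rspo1 Ckm (0.960), the creatine kinase of muscle. With the group means removed these values were between 0.85 (Rspo1) and 0.99 (Wnt5a).

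Other genes of the same pathways are given as counts, to be read against the 10.0% of all genes tested that were called higher and the 2.38% called lower. In HH_WBI against HH_Ctrl, 2 of 3 tested of 17 other Wnt ligands were called higher, Wnt4 (log2 fold change 2.25) and Wnt3 (2.0), and neither Rspo2 nor Rspo4 reached the limit for testing. Of 3 tested of 10 other Wnt antagonists, Frzb (2.04) and Dkk3 (1.33) were called higher and Sfrp5 (-1.59) lower. Of 16 tested Wnt and R-spondin receptors 1 was called higher, Fzd9 (1.82). Of 16 tested Wnt target genes 4 were called higher, namely Cd44 (2.10), Sox9 (1.58), Apcdd1 (1.53) and Ccnd1 (1.04). The median log2 fold change of the 16 was 0.54 against 0.09 over all genes, with 14 above 0. In LL_WBI against LL_Ctrl it was 0.40 against -0.12, also with 14 of 16 above 0. In the difference between the responses it was 0.05 against 0.18, with none called.

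On the BMP side, 3 of 7 tested of 12 other antagonists were called higher in HH_WBI, namely Fstl1 (1.95), Fst (1.91) and Twsg1 (1.10). Of 5 tested of 11 other ligands Bmp7 (1.44) was called higher and Bmp3 (-1.40) lower. Of 9 tested BMP receptors and Smads, which carry the signal into the cell, 1 was called higher, Acvrl1 (1.89), and of 8 tested BMP target genes 1, Id4 (1.01). The target genes had a median of -0.43 against 0.09 over all genes, with 3 of 8 above 0, while the ligands Bmp2, Bmp4 and Bmp5 were higher. Within the fold limit, the targets Smad6 (-0.87), Id3 (-0.83), Id1 (-0.74) and Id2 (-0.59) were lower, at limma adjusted p from 0.00216 to 0.0387. The target Bambi (1.35) was not called (limma adjusted p = 0.0567). In LL_WBI against LL_Ctrl no gene of these 9 lists was called. There the 9 tested BMP target genes had a median of -0.26 against -0.12 over all genes. In the difference between the responses the median of the BMP target genes was 0.01 against 0.18 over all genes, with none called.

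Between the controls the same lists held genes lower in HH_Ctrl than in LL_Ctrl, namely Wnt4 (-1.83), Wnt3 (-1.07), Fst (-1.69), Chrdl1 (-1.53), Twsg1 (-1.33), Fstl1 (-1.20), Acvrl1 (-1.55) and Bambi (-1.39). Bmp8b (1.61) was higher. In the difference between the responses, Twsg1 (1.24), Bmpr1a (0.90), a receptor of Bmp2 and Bmp4, and Ryk (0.76), a receptor of Wnt5a, were called higher.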

How the data were processed

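The authors deposited FPKM per gene for the 12 libraries, made with StringTie per the study's methods. The labels name rRNA depletion and the methods oligo(dT) selection. The submitters' processing notes name Bowtie 0.12.2 and several mouse builds without a role for each. No read counts were used, so sequencing depth is unknown beyond the relative depth from value steps, and no counting interval can be given. All columns were matched to samples by name.

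The 10 members, the pathway and marker lists and the tests were chosen with earlier results of these data known. The marker subsets without Krt19 and without Cd81 and the ratios were chosen after values were seen. Groups were compared with limma 3.58.1 (R 4.3.3; trend, empirical Bayes) on log2(FPKM + 0.1), each pair of groups in its own fit, for genes averaging 0.5 FPKM or more in the libraries compared, and p-values were adjusted over all of them. The scripts were tested on simulated data. Sums, ratios and figures used Python 3.11.15 with pandas 2.3.3, numpy 2.4.6 and matplotlib 3.10.9.

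Named besides the members were called genes of each pathway list (up to 4 with the smallest p), the gene most like each member, and up to 3 markers of a list with the highest mean. BMP target genes lower within the fold limit were also named, after values were seen. Alternatives were the pseudocount (0.01, 1), the filter (none, 1 FPKM), a replicate block, median-ratio scaling, removal of pancreatic acinar genes, a joint fit, adjusted p alone, all 6 controls and leaving out each library. Exchanged controls and removal of trends on GC content and length (known for 99.6% of genes) were added after seeing the data.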

Additional observations from a re-analysis of the deposited data

Results flagged for a closer look

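For 4 members the HH and LL responses differed by the test of the difference itself (limma over 12 libraries, n = 3 per group). The difference, HH minus LL on the log2 scale, was 2.03 for Bmp4, 2.33 for Bmp5, 2.06 for Sfrp1 and -2.94 for Rspo1. Leaving out each of the 12 libraries in turn, the call was lost in 10 cases for Bmp4 and Bmp5, 5 for Sfrp1 and 2 for Rspo1. With no filter on low values, Bmp4 (limma adjusted p = 0.0642) and Bmp5 (0.0598) were not called. For Bmp4, Bmp5 and Sfrp1 the HH_WBI libraries were higher than HH_Ctrl in 3 of 3 and the log2 fold changes between LL_WBI and LL_Ctrl were 0.53, 0.44 and 1.17, while the control groups also differed by -1.45, -1.83 and -2.16. For Rspo1 the difference was not called between the controls (0.58), and the log2 fold changes were -2.15 in the HH mode and 0.80 in the LL mode.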

How the results depend on the processing

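Over 759 combinations of a member's result and an alternative, direction and call held in 676, a call was lost in 41, gained in 13 and the direction changed in 29. The HH calls of Bmp2, Bmp4, Bmp5, Wnt2b, Wnt5a and Sfrp1 held without each library in turn, and that of Rspo1 in the 4 of 6 cases in which it reached the limit for testing.

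In HH_WBI against HH_Ctrl, the genes called numbered 877 with a pseudocount of 1, 4614 by adjusted p alone and 792 against all 6 controls. With LL_Ctrl in place of HH_Ctrl, 3 members were called, and Rspo1 was below the limit for testing. In LL_WBI against LL_Ctrl, 20 genes were called with no filter, 15 with median-ratio scaling, 223 with all 12 libraries in one fit, 206 against all 6 controls and 1612 with HH_Ctrl in place of LL_Ctrl, which called 4 members. Without each library in turn these were 3 to 632 genes and 0 to 1 member. In HH_Ctrl against LL_Ctrl, 1065 genes and 1 member were called with a pseudocount of 1 and 5647 genes by adjusted p alone. In HH_WBI against LL_WBI, 115 genes and 1 member were called with all 12 libraries in one fit, and 0 to 330 genes without each library. In the difference between responses, 2 members were called with a pseudocount of 1 and 2 with no filter, 268 genes with trends on GC content and length removed, and 69 to 2030 genes and 0 to 7 members without each library.

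With a replicate block, 116 genes were called in LL_WBI against LL_Ctrl, 9 in HH_WBI against LL_WBI and 389 in the difference, and no call of a member changed. Same-numbered libraries correlated at 0.04 to 0.24 in HH and -0.04 to 0.10 in LL. Libraries of unlike number correlated at -0.32 to 0.16 in HH and -0.18 to 0.17 in LL. The ranges overlapped, and the numbers were not taken as pairs.

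Directions that changed were all of results not called. Without a library, the log2 fold change between LL_WBI and LL_Ctrl was -0.0688 to 0.78 for Bmp2, -0.0334 to 0.81 for Bmp5, -0.0549 to 0.47 for Wnt2b and -0.19 to 0.69 for Wnt5a, and for Bmp2 between HH_Ctrl and LL_Ctrl -0.0595 to 0.26. Between HH_WBI and LL_WBI it was -0.33 to 1.41 for Grem1, -0.26 to 0.37 for Wnt2b, -0.43 to 0.14 for Sfrp1 and -0.38 to 0.55 for Rspo3, and the difference for Grem1 was -0.55 to 1.19. With trends on GC content and length removed, Bmp2 was at -0.18 between the controls, Wnt2b at -0.13 between HH_WBI and LL_WBI and Grem1 at -0.35 in the difference. Without pancreatic acinar genes, Wnt2b was at -0.0677 and Grem1 at -0.0360 in these comparisons. Grem1 was at -0.0800 in the difference with median-ratio scaling, and Rspo3 at 0.0105 between HH_WBI and LL_WBI with a pseudocount of 1. The causes were not tested.

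Each group holds 3 libraries, depth is unknown, and the group means of Nog in all groups, Rspo1 in HH_WBI, Rspo3 in HH_Ctrl and LL_Ctrl and Bmp5 in HH_Ctrl lie below 0.5 FPKM.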
